A study of Mus musculus with 12 samples.

Results

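The 9 genes described here encode the NF-kappa B family of transcription factors (Nfkb1, Nfkb2, Rel, Rela and Relb), the inhibitors that hold these factors in the cytoplasm (Nfkbia, Nfkbib and Nfkbie) and Tnfaip3, a ubiquitin-editing enzyme that stops the signal upstream of them. They were chosen by gene symbol and are 9 of the 17202 genes with a normalized count in mouse cortex; all 9 passed the filter on low values, as did 17111 genes in all. The mice were a model of Williams-Beuren syndrome called CD, which carries a heterozygous deletion from Gtf2i to Fkbp6, compared with wild-type (WT) mice. The 4 groups of 3 mice were VEH-WT and VEH-CD, which the labels call untreated and the study's methods describe as drinking water with DMSO, and VERCUR-WT and VERCUR-CD, which drank curcumin, a turmeric polyphenol, and verapamil, a blocker of L-type calcium channels.

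By the labels, treatment began at 8 weeks of age and lasted 1 month, at a daily dose of 60 mg/kg for curcumin and 10 mg/kg for verapamil, with the cortex of all 12 mice, strain C57Bl6, dissected at 16 weeks; the study's methods give a lower verapamil dose and an earlier end. The CD line had been crossed with Thy1-YFP mice, whose transgene labels pyramidal neurons, and whether each sequenced mouse carried it is not given in the sources used here. No sample label says whether mice shared a litter, a cage or a library preparation day.

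In resting cells NF-kappa B dimers are bound by IkB proteins. Cytokines, microbial products or strong synaptic activity turn on the IKK kinases, which mark IkB for destruction, and dimers such as those of the Rela and Nfkb1 products enter the nucleus. A slower, non-canonical branch processes the Nfkb2 product to a partner of the Relb product. Nfkbia, Tnfaip3, Nfkb2, Relb and Rel are themselves textbook targets of the factor, so that their RNA is often read as a feedback of the pathway, but protein processing and nuclear entry, the main steps of control, are not seen in RNA. In brain tissue the family is expressed in neurons, glia and blood vessels. In bulk cortex, fewer cells of a type and less RNA per cell cannot be told apart.

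The libraries held 40290000 to 56480000 counted reads. All 19 genes of the deleted region that were checked were lower in each of the 6 CD mice than in each of the 6 WT mice, with medians of 46.8% to 53% of the VEH-WT mean in CD and 95.9% to 104% in WT mice. Within groups, the log2 values of 2 mice correlated over genes with Pearson's r of 0.9856 to 0.9936. In each group 1 mouse stood apart in a list of 9 markers of striatal neurons, cells of a region that adjoins the cortex. Their mean level relative to VEH-WT was 1.51 in VEH-WT mouse 3 and 1.64 in VEH-CD mouse 1. In VERCUR-WT mouse 3 it was 1.78 and in VERCUR-CD mouse 1 it was 1.31. The other vehicle mice had 0.734 to 0.746, and the other co-treated mice 0.356 to 0.376. In VERCUR against VEH over both genotypes, all 9 markers had a log2 difference below 0, with a median of -0.534. Leaving out the 4 mice does not remove this difference between treatments, and its part in the results was not tested. Member counts and values that changed without these 4 mice are given beside the comparison or in the closing section on processing.

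Members that the factor itself is known to switch on carry binding sites near their start, so the promoters are shown first. RefSeq promoter windows of GRCm38.p6, from 250 bases before to 50 bases after a start site, were matched by symbol for 7 members (10 windows), all but Nfkb1 and Relb. The kappa B consensus, searched on both strands with overlapping matches kept, was found in 7 of these 10 windows and in 5 of the 7 members (Nfkb2, Rel, Nfkbia, Nfkbie and Tnfaip3), against 4.5% of all 32817 windows and 5.13% of 26994 genes. The cAMP response element TGACGTCA was in 0 of the 10 windows and in 1.79% of all windows. Windows of Nfkb2 that begin at chr19:46305445 and chr19:46305680 overlap. The match GGGACTTTCC at chr19:46305705-46305714 is counted in both and is the only match of the latter. These are matches of letters in these windows and not measured binding. The windows of Nfkbia (chr12:55492598-55492897, minus strand) and Rel (chr11:23770920-23771219, minus strand) are shown because both genes were lower in VEH-CD than in VEH-WT mice at an unadjusted p under 0.05, and the first window of Nfkb2 (chr19:46304487-46304786, plus strand) because it held the most matches while its groups overlapped. Capitals mark the kappa B matches.
Nfkbia: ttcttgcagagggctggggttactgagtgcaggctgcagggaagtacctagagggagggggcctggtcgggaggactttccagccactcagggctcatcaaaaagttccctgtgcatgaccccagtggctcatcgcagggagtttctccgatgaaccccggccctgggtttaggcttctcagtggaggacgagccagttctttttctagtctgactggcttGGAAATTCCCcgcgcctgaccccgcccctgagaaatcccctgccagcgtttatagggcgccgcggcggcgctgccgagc
Rel: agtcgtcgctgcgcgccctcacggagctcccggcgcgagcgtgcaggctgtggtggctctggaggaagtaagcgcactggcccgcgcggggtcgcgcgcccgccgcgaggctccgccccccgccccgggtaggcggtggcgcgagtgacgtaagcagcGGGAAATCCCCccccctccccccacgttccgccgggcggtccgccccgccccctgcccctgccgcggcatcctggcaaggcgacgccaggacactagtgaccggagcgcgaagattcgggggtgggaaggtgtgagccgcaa
Nfkb2: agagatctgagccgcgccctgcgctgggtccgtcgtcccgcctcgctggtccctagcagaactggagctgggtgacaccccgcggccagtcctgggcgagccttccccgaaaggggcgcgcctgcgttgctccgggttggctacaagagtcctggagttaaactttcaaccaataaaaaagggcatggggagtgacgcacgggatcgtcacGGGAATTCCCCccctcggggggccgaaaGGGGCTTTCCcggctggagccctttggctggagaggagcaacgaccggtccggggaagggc
The Nfkbia match GGAAATTCCC lay 29 to 20 bases before the start site. In Rel the overlapping matches GGGAAATCCC and GGAAATCCCC began 92 and 91 bases before it. In the first Nfkb2 window, matches began 39, 38 and 11 bases before the start.

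Levels were compared between members per kilobase (kb) of exon, from the GENCODE M21 annotation, as the mean ± SD over all 12 mice. The order was Nfkbib with 545.6 ± 29.95 normalized counts per kb, Nfkbia with 524 ± 96.77, Rela with 305.4 ± 21.73, Relb with 66.73 ± 10.38, Nfkb1 with 46.63 ± 2.825, Tnfaip3 with 44.17 ± 4.708, Nfkbie with 37.82 ± 4.361, Rel with 28 ± 4.884 and Nfkb2 with 25.39 ± 3.567. The cytoplasmic inhibitors Nfkbib and Nfkbia, whose ranges over mice overlapped, thus stood highest. The highest mouse for Rela, at 338.8, was below the lowest for Nfkbia, at 413.5, and the lowest for Rela, at 269.6, was above the highest for Relb, at 85. From Nfkb1 to Nfkb2, every neighbour in the order overlapped the next. The counting annotation is not given in the sources used here, so lengths are those of all annotated exons. Nfkb2 shares 299 exon bases with Psd and Nfkbib shares 314 with Ccer2 and 42 with Sirt2, on opposite strands, and whether counting used the strand is not stated either.

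**Figure D1:**
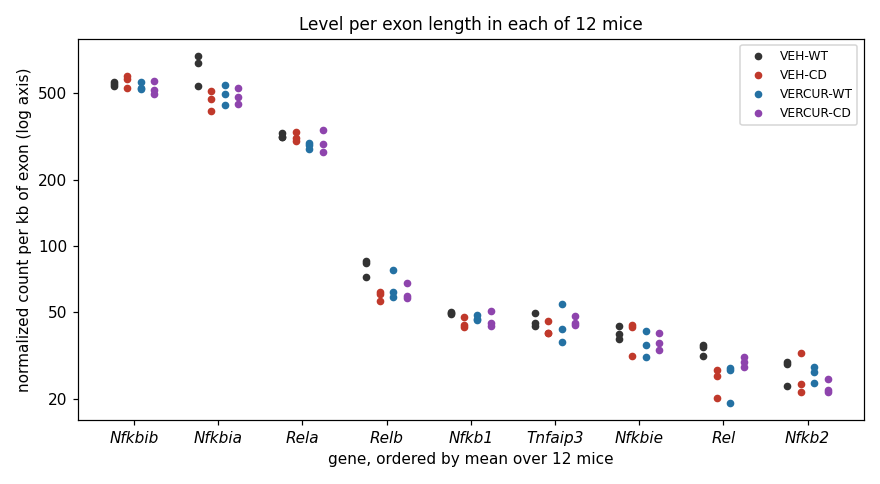
Normalized counts per kb of exon on a log axis, 1 point per mouse, for the 9 genes ordered by their mean over 12 mice. Nfkbib, Nfkbia and Rela lie between 269.6 and 736.9 per kb, and the other 6 genes between 19.23 and 85.

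Spread between mice of 1 group differed among the members. The median coefficient of variation (CV) of the 9 members was 7.04% in VEH-WT, 7.37% in VEH-CD, 10.7% in VERCUR-WT and 8.68% in VERCUR-CD mice, beside 7.52%, 7.86%, 8.34% and 10.2% for all genes tested, so that in VERCUR-WT mice the members were above all genes. Only Nfkb2 in VEH-CD mice (22.6%) and Tnfaip3 in VERCUR-WT mice (20.6%) had a CV of 20% or more. The widest spread over all 12 mice was that of Rel, 1.834 times from the lowest to the highest mouse, and of Nfkbia, 1.782 times, and the narrowest that of Nfkb1, 1.188 times.

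**Figure D2:**
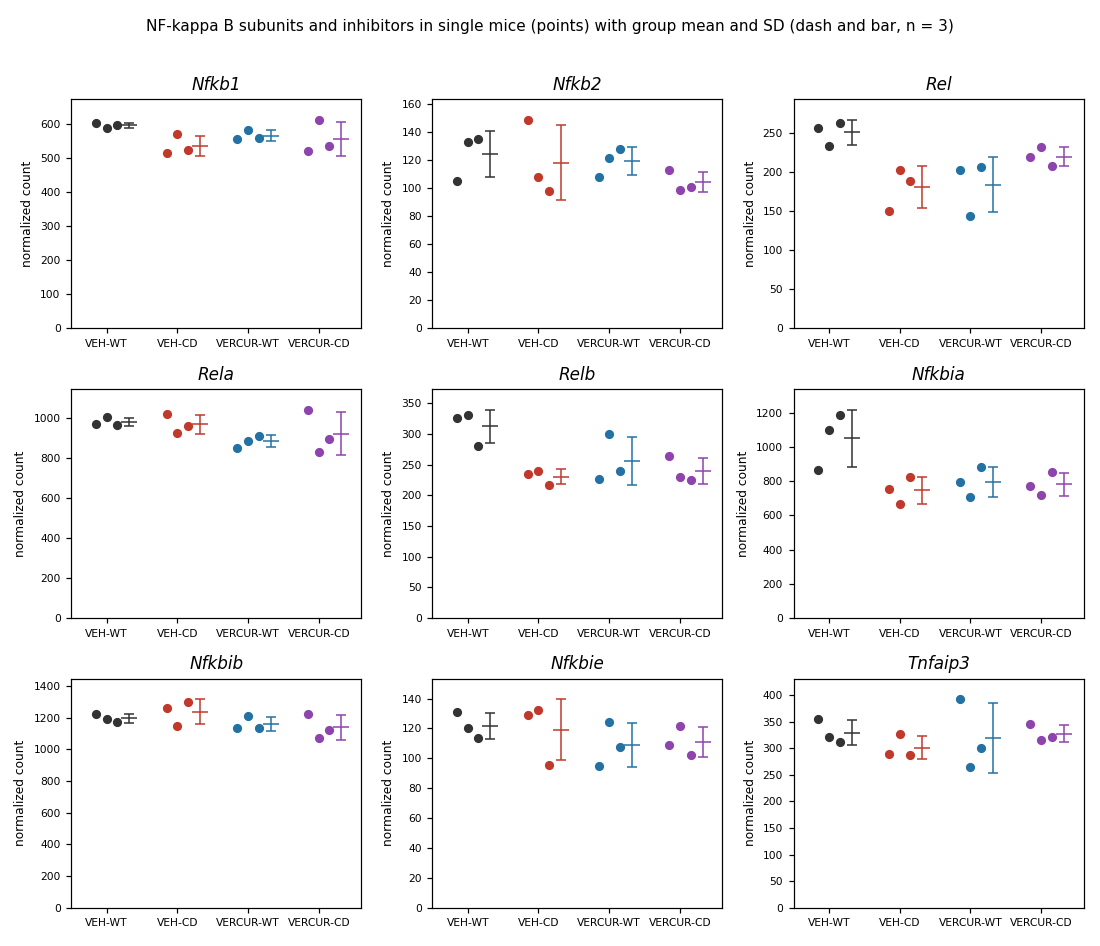
Normalized counts of the 9 genes in each of 12 mice (points, in the order mouse 1 to 3) with the group mean and SD (n = 3), each axis starting at 0. For Nfkbia, Relb and Rel the 3 VEH-CD mice lie below the 3 VEH-WT mice, and for Rel the VERCUR-CD mice lie above the VERCUR-WT mice.

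The first question was whether the deletion shifts the family in vehicle mice. No member passed the test: 0 of 9 had an adjusted p under 0.05 with a fold change past the limits used for calls, more than 25% up or down (limma with Benjamini-Hochberg adjustment over 17111 genes), beside 44 genes called in all, a share of 0.257%. At an unadjusted p under 0.05, 3 of 9 were lower in VEH-CD mice and 0 higher, beside a share of 6.73% of all genes on the lower side. These 3 were Nfkbia, Relb and Rel. The log2 fold change was below 0 for 8 of 9 members, with a median of -0.128 beside -0.003 over all genes.

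Nfkbia, whose product IkB-alpha is the fast-acting inhibitor that the pathway resynthesizes after activation, had normalized counts of 864, 1102 and 1186 in VEH-WT mice and 753, 666 and 824 in VEH-CD mice. The highest VEH-CD mouse, at 824, was below the lowest VEH-WT mouse, at 864, so that the groups did not overlap. The group means were 1051 ± 167 and 748 ± 79.3 (SD, n = 3), so that VEH-CD mice had 71.2% of the VEH-WT mean. The log2 fold change was -0.48 (SE 0.126, 95% interval -0.76 to -0.21), with adjusted p = 0.168 by limma.

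Relb encodes the subunit of the non-canonical branch. Its values were 325, 330.2 and 281 in VEH-WT mice and 234, 239 and 217 in VEH-CD mice, again with no overlap. The VEH-CD mean was 73.8% of the VEH-WT mean, a log2 fold change of -0.44 (SE 0.122, 95% interval -0.70 to -0.17), with adjusted p = 0.198 by limma.

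Rel, which encodes c-Rel, a subunit best known from lymphocytes and also found in neurons, gave 257, 233 and 263 in VEH-WT mice. In VEH-CD mice it gave 151, 203 and 189, and the groups did not overlap. The VEH-CD mean was 72.1% of the VEH-WT mean. The log2 fold change of -0.48 (SE 0.151, 95% interval -0.81 to -0.15) had an adjusted p of 0.248 by limma.

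The canonical subunits differed less. Nfkb1, the precursor of p50, had 603, 588 and 595 in VEH-WT and 514, 569 and 522 in VEH-CD mice. These groups too did not overlap, with a small log2 difference of -0.15 (SE 0.079, adjusted p = 0.472 by limma). Together with Nfkbia, Relb and Rel this made 4 of 9 members with every VEH-CD mouse below every VEH-WT mouse, beside 11.4% of all genes. Rela, which encodes p65, the main activating subunit, had 971, 1004.5 and 966 in VEH-WT and 1020.3, 923 and 959 in VEH-CD mice. These overlapped, and the log2 difference of -0.02 had a 95% interval of -0.20 to 0.16.

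For the other 4 members the VEH-CD and VEH-WT mice overlapped as well. Nfkb2, the p100 precursor, ranged from 105 to 135 in VEH-WT and from 98.2 to 149 in VEH-CD mice, a log2 difference of -0.09 (95% interval -0.44 to 0.27). Nfkbib, encoding IkB-beta, was the only member with a higher mean in VEH-CD mice, at 103% of VEH-WT (log2 difference 0.05, 95% interval -0.11 to 0.20). Nfkbie, encoding IkB-epsilon, differed by -0.04 (95% interval -0.38 to 0.29) and Tnfaip3 by -0.13 (95% interval -0.41 to 0.15).

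The reading of the 3 lower members changed with 2 choices. When the value farthest from the median was removed in every group with a CV of 20% or more, Nfkbia (adjusted p = 0.0221), Relb (0.0346) and Rel (0.0498) passed the test in limma, with log2 differences still at -0.48, -0.44 and -0.48. That choice also brought the genes called from 44 to 972, a share of 5.68%. None of the values of these 3 genes was itself removed. Without the 4 mice highest in striatal markers, the log2 differences of Nfkbia, Relb and Rel were -0.40, -0.52 and -0.32, with unadjusted p of 0.0321, 0.00864 and 0.114 by limma, so that 2 of 9 members and no longer Rel were under 0.05.

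**Figure D3:**
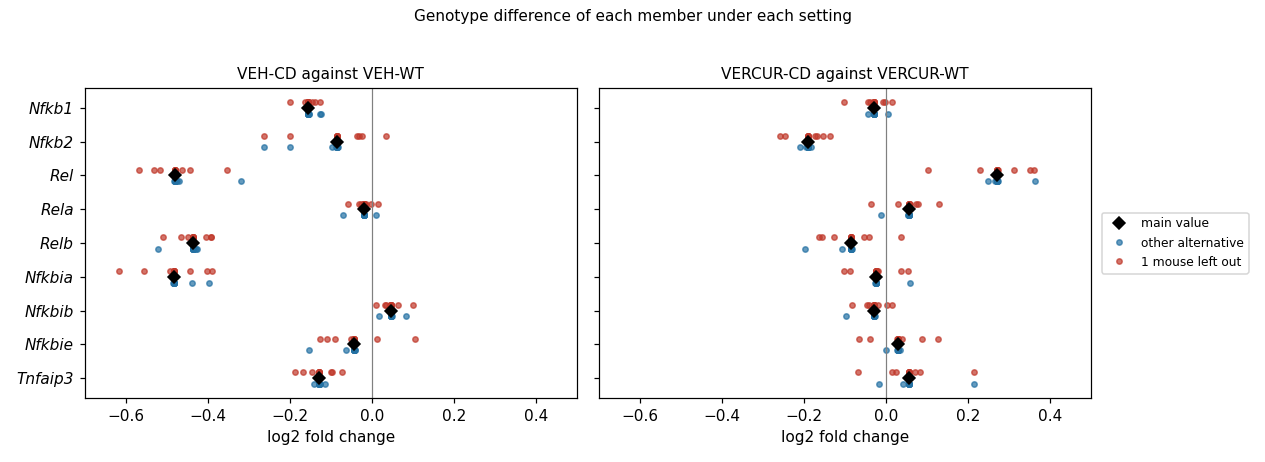
Log2 fold changes of the 9 genes between CD and WT mice, in vehicle mice (left) and co-treated mice (right), under each setting: the main value (black), fits with 1 mouse left out (red) and other alternatives (blue). In vehicle mice every setting puts Nfkbia, Relb and Rel below 0, with fits without 1 mouse between -0.62 and -0.39, between -0.51 and -0.39 and between -0.57 and -0.35.

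The second question was what the co-treatment does in wild-type mice. No member passed the test in VERCUR-WT against VEH-WT, nor did any gene: 0 of 17111 were called, a share of 0%, with 893 genes at an unadjusted p under 0.05 in limma. This comparison uses the same VEH-WT mice as the one above, so the 2 are not independent. The log2 difference was below 0 for 9 of 9 members, with a median of -0.151 beside -0.001 over all genes. An unadjusted p under 0.05 was reached by 3 of 9, all lower, beside 3.25% of all genes on that side.

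These 3 were again Nfkbia, Rel and Relb. Nfkbia had 794, 710.4 and 881 in VERCUR-WT mice, of which the highest lay above VEH-WT mouse 1 at 864. The mean was 75.7% of VEH-WT and the log2 difference -0.40 (SE 0.126, adjusted p = 0.944 by limma). Rel had 203, 144 and 206, with every mouse below every VEH-WT mouse (log2 difference -0.46, SE 0.151, adjusted p = 0.944 by limma). Mouse 2 was the lowest of all 12 for Rel, and without it the difference was -0.29.

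Relb had 227, 300.1 and 239 in VERCUR-WT mice and overlapped the VEH-WT mice through mouse 2 (log2 difference -0.30, SE 0.122, adjusted p = 0.944 by limma). Without the 4 mice highest in striatal markers, 2 of 9 members had an unadjusted p under 0.05, Nfkbia (-0.38) and Rel (-0.52), and Relb, at -0.33, did not. With 1 mouse left out, Relb also missed it without VEH-WT mouse 1 or 2 or VERCUR-WT mouse 1 or 3, and Rel without VERCUR-WT mouse 2. Rela was 851, 886 and 912, below every VEH-WT mouse, at 90.1% of the VEH-WT mean. Its log2 difference of -0.15 had a 95% interval of -0.33 to 0.03. With Nfkb1, whose VERCUR-WT mice at 554, 583 and 558 were also all below the VEH-WT mice, 3 of 9 members did not overlap, beside 5.25% of all genes on the lower side. The other 4 (Nfkb2, Nfkbib, Nfkbie and Tnfaip3) differed by -0.16 to -0.04 on the log2 scale and overlapped.

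The co-treated CD mice were set against the same VEH-WT mice. Again 0 of 9 members were called in VERCUR-CD against VEH-WT, beside 34 genes or 0.199%, and 9 of 9 had a log2 difference below 0, with a median of -0.135. Nfkbia had 774, 718 and 853 in VERCUR-CD mice, all below the VEH-WT mice, at 74.4% of their mean (log2 difference -0.42, SE 0.126, adjusted p = 0.396 by limma). Relb had 264, 229 and 225, also without overlap, at 76.8% (log2 difference -0.38, SE 0.122, adjusted p = 0.415 by limma). These 2 of 9 had an unadjusted p under 0.05 on the lower side, beside 4.76% of all genes. Without the 4 mice highest in striatal markers, 1 of 9 did, Relb at -0.53, while Nfkbia stood at -0.32.

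Rel stood closer to VEH-WT in these mice. It had 219, 233 and 208, of which the highest, 232.92, was just under the lowest VEH-WT mouse at 233.23. With Nfkbia and Relb, 3 of 9 members thus did not overlap on the lower side, beside 7.33% of all genes. For Rel this rests on a gap smaller than the value of 1 read. Its mean was 87.6% of VEH-WT, and the log2 difference of -0.19 had a 95% interval of -0.52 to 0.14. With single values removed where the CV was 20% or more, Nfkbia alone was called in this comparison (adjusted p = 0.0492 by limma), beside 4.91% of all genes.

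Because the 3 comparisons above share VEH-WT, the VEH-WT mice themselves are described once. The mean was highest in VEH-WT for 8 of 9 members, all but Nfkbib, where 29% of all genes had their highest mean in that group. Each VEH-WT mouse was above each of the 9 other mice for Rel alone, a pattern of 1.43% of all genes. The closest pair was VEH-WT mouse 2 at 233.23 and VERCUR-CD mouse 2 at 232.92. These lay closer together than the value of 1 read in these libraries, 1.1546 and 0.8993 normalized counts. For Nfkbia, VEH-WT mice 2 and 3, at 1102 and 1186, were the highest 2 of 12, while mouse 1 at 864 lay under VERCUR-WT mouse 3 at 881.

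Among co-treated mice, CD and WT were close for most members. In VERCUR-CD against VERCUR-WT, 0 of 9 were called, beside 25 genes or 0.146%, and 0 of 9 had an unadjusted p under 0.05 in limma. Nfkbia differed by -0.02 on the log2 scale (95% interval -0.30 to 0.25) and Relb by -0.08 (95% interval -0.35 to 0.18). Rel was the exception: each VERCUR-CD mouse was above each VERCUR-WT mouse (208 to 233 against 144 to 206), the only member of 9 without overlap on the higher side, beside 3.91% of all genes. Its log2 difference was 0.27 (SE 0.151, 95% interval -0.06 to 0.60, adjusted p = 1 by limma), and without VERCUR-WT mouse 2 it was 0.10. Alternatives that did not leave out a single mouse gave 0.25 to 0.36 for Rel. Without the 4 mice highest in striatal markers, Nfkb1 (0.006), Rela (-0.012), Nfkbia (0.059) and Tnfaip3 (-0.016) changed sign.

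Whether the co-treatment moves the family in CD mice was read from VERCUR-CD against VEH-CD mice. Here 0 of 9 members were called, as were 0 of 17111 genes, a share of 0%, with 605 genes and none of the members at an unadjusted p under 0.05 in limma. Nfkbia had 774, 718 and 853 in VERCUR-CD and 753, 666 and 824 in VEH-CD mice, which overlapped (log2 difference 0.07, 95% interval -0.21 to 0.34). Relb differed by 0.06 (95% interval -0.21 to 0.32). Rel was higher in each VERCUR-CD mouse (208 to 233) than in each VEH-CD mouse (151 to 203), the only member of 9 so placed, beside 3.71% of all genes, and its log2 difference of 0.29 (SE 0.151, 95% interval -0.04 to 0.62) had an adjusted p = 0.867 by limma. That difference was 0.16 without VEH-CD mouse 1, the lowest of its group for Rel, and 0.17 without the 4 mice highest in striatal markers.

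**Figure D4:**
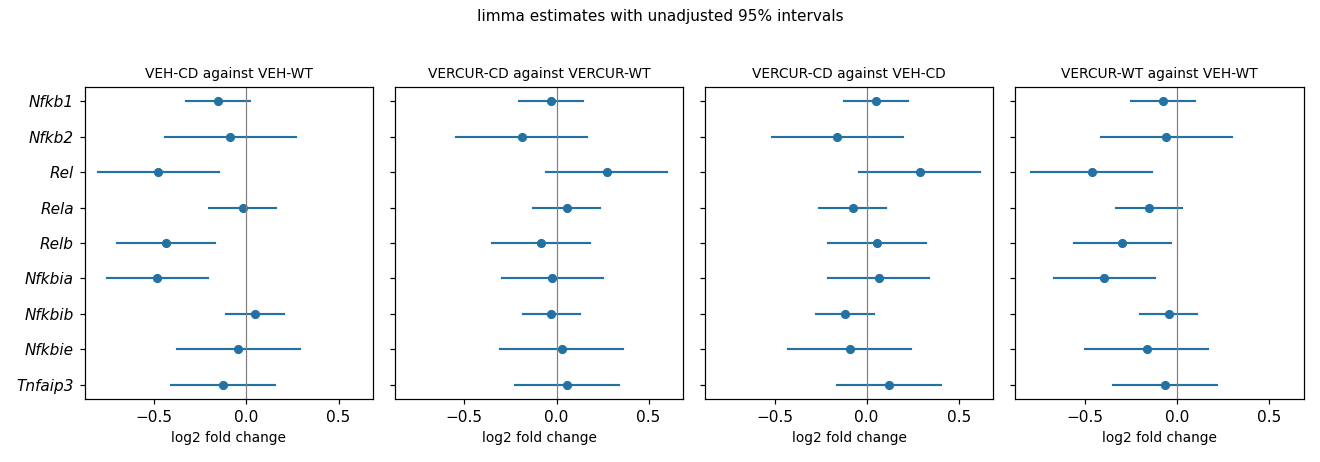
Log2 fold changes of the 9 genes (points) with unadjusted 95% intervals from limma (lines) in 4 comparisons of 3 mice against 3. The intervals of Nfkbia, Relb and Rel lie below 0 in VEH-CD and in VERCUR-WT, both against VEH-WT, and all 9 intervals include 0 in the other 2 comparisons.

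Averaged over both treatments, Relb and Nfkbia had the smallest p for genotype among the members. Their log2 differences between CD and WT were -0.44 and -0.48 in vehicle mice and -0.08 and -0.02 in co-treated mice. In CD against WT over both treatments, 0 of 9 members were called, beside 55 genes or 0.321%. Relb (log2 difference -0.26, SE 0.086, adjusted p = 0.329) and Nfkbia (-0.25, SE 0.089, adjusted p = 0.367) had an unadjusted p under 0.05 in limma, 2 of 9 beside 4.86% of all genes on the lower side. With the 4 mice highest in striatal markers left out, 1 of 9 did, Relb at -0.36, while Nfkbia stood at -0.17. Rel differed by -0.10 (95% interval -0.34 to 0.13), and by 0.02 without these 4 mice. In VERCUR against VEH over both genotypes, 0 of 9 members and 0 genes (0%) were called, with 506 genes and none of the members at an unadjusted p under 0.05 in limma. The median over members was -0.108 beside 0 over all genes. The lowest p among members was that of Rela, 0.0775 (log2 difference -0.11, adjusted p = 1 by limma). Without these 4 mice Rela, at -0.16, was the 1 member of 9 with an unadjusted p under 0.05.

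Whether the genotype difference depends on the treatment was tested by the interaction. No gene passed it (0 of 17111, a share of 0%, with 1035 genes at an unadjusted p under 0.05 in limma). Rel had the largest value of the 9, a log2 interaction of 0.75 (SE 0.214, 95% interval 0.29 to 1.21, adjusted p = 0.816 by limma), which is the difference in CD minus WT between co-treated and vehicle mice. Nfkbia had 0.46 (SE 0.179, 95% interval 0.07 to 0.85, adjusted p = 0.816 by limma). These 2 of 9 reached an unadjusted p under 0.05, both higher, beside 3.72% of all genes. Only 1 of 9 did without the 4 mice highest in striatal markers, Rel at 0.68, while Nfkbia stood at 0.46. Nfkbia also missed it without VEH-WT mouse 2 or 3, VEH-CD mouse 2, VERCUR-WT mouse 2 or VERCUR-CD mouse 3. Relb, at 0.35 (95% interval -0.02 to 0.73, adjusted p = 0.816 by limma), did not. The other 6 lay between -0.10 and 0.19.

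The rest of the pathway was read from 5 lists of genes. In VEH-CD against VEH-WT, 0 genes of any of the 5 were called by limma. Their counts at an unadjusted p under 0.05 are read beside 6.73% of all genes on the lower and 5.07% on the higher side. This does not hold for the study's own list, whose genes were picked from this comparison. Of 17 genes in the list of atypical IkB proteins and other brakes, 3 were lower and 2 higher. Nfkbiz, an atypical nuclear IkB protein and itself a target of the pathway, had 110, 143 and 127 in VEH-WT and 62.8, 96.3 and 85.1 in VEH-CD mice, without overlap (log2 difference -0.65, SE 0.179, adjusted p = 0.198 by limma). Nkrf, a repressor of NF-kappa B target genes, differed by -0.31 (adjusted p = 0.396). Nfkbil1, an IkB-like nuclear protein gene, was higher, with 495, 483 and 514 in VEH-WT and 700.4, 569.5 and 671 in VEH-CD mice (log2 difference 0.37, SE 0.105, adjusted p = 0.198). Zfp91 is in this list but is no brake: its ubiquitin ligase is known to stabilize the kinase NIK and so to activate the non-canonical branch. It differed by 0.15 (adjusted p = 0.421).

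Of the 35 measured IKK kinases and adaptors, 5 were lower and 1 higher at an unadjusted p under 0.05, with a median log2 difference of -0.040. Irak2, a kinase below interleukin-1 and Toll-like receptors, had 1043.5, 1054 and 961 in VEH-WT and 829.5, 863 and 827 in VEH-CD mice (log2 difference -0.28, SE 0.077, adjusted p = 0.194 by limma). Bcl10, an adaptor of the CARD complex, differed by -0.30 (adjusted p = 0.261). Tab1, a partner of the kinase TAK1, and Card9, an adaptor of myeloid cells, differed by 0.23 and 0.40 (adjusted p = 0.323 and 0.424). In CD against WT over both treatments, Irak2 again had the lowest p of the list (log2 difference -0.22, adjusted p = 0.171 by limma).

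Of 33 ligands and receptors, 25 were measured, and Tnf, Il1b, Lta and 5 others were not analysed here. At an unadjusted p under 0.05, 1 was lower and 1 higher. Il1r1, the signaling receptor for interleukin-1, was 127, 124 and 149 in VEH-WT and 98.3, 92.7 and 83.9 in VEH-CD mice (log2 difference -0.53, SE 0.179, adjusted p = 0.276 by limma). Tlr1, a Toll-like receptor of microglia, was low, at 13.5, 21.9 and 20.9 in VEH-WT and 36.6, 25.6 and 35.9 in VEH-CD mice (log2 difference 0.78, SE 0.242, adjusted p = 0.235 by limma). In VERCUR-CD against VEH-WT, 21 of the 25 had a difference above 0, with a median of 0.183, and 3, all higher, had an unadjusted p under 0.05, beside 3.92% of all genes on that side.

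Of 40 target genes, 26 were measured, and the chemokine and cytokine genes Ccl2, Cxcl10 and Il6 were among the 14 not analysed here. In VEH-CD against VEH-WT, 4 were lower and 1 higher at an unadjusted p under 0.05, with a median of -0.113. Ier3, an early-response survival gene, came closest to the threshold of any gene in the 5 lists: it had 569, 518 and 452 in VEH-WT and 345, 356 and 347 in VEH-CD mice (log2 difference -0.55, SE 0.106, adjusted p = 0.0634 by limma). Ier5, another early-response gene, had 7816, 10275 and 7132 against 5201, 6062 and 5248 (log2 difference -0.60, SE 0.12, adjusted p = 0.0697). Both were near 0 in VERCUR-CD against VERCUR-WT, at -0.004 and -0.009. Bcl2a1b, a survival gene of myeloid cells with near-identical copies, differed by 0.81 (SE 0.331, adjusted p = 0.36), and its reads cannot be assigned with certainty. Cd83 differed by 0.25 (adjusted p = 0.465).

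The study drew its list of 10 NF-kappa B genes from those it found different between these same VEH-CD and VEH-WT mice. Nfkbia and Relb are among them. Low p values are thus built into the list, which is no independent evidence of number or direction. In VEH-CD against VEH-WT, 5 of its 10 genes were lower and 2 higher at an unadjusted p under 0.05, and 0 were called by limma. Lck, a T cell kinase gene, was one of the higher, with 29.1, 33.5 and 29.6 in VEH-WT and 44.6, 47.7 and 61.1 in VEH-CD mice (log2 difference 0.71, SE 0.201, adjusted p = 0.207). Card14, an adaptor gene, was the other. It was low, at 6.73, 6.93 and 11.3 in VEH-WT and 12.57, 15.89 and 17.97 in VEH-CD mice (log2 difference 0.84, SE 0.387, adjusted p = 0.421 by limma).

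In CD against WT over both treatments, 0 genes of the 5 lists were called by limma. In the list of atypical IkB proteins and brakes, Zfp91, the activator named above, had the smallest p (log2 difference 0.20, SE 0.049, adjusted p = 0.17), and Traf3, which restrains the non-canonical branch, differed by -0.21 (adjusted p = 0.407). Among ligands and receptors, Tlr1 and the interleukin gene Il1a differed by 0.56 and 0.60 (adjusted p = 0.281 and 0.456). Among targets, Ier3 and Ier5 differed by -0.28 and -0.30 (adjusted p = 0.223 and 0.242). In the study's list, Bcl2, a survival gene, differed by -0.28 (adjusted p = 0.318), Pidd1, a death-domain scaffold gene, by 0.41 (adjusted p = 0.285) and Lck by 0.41 (adjusted p = 0.361).

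Other lists moved together with the members, and their part in the result was not tested. The 18 immediate early genes, which neurons switch on with activity, were all lower in VEH-CD than in VEH-WT mice, with a median of -1.071. Of these 18, 12 had an unadjusted p under 0.05, beside 6.73% of all genes on the lower side. Only 1, Klf4, was called (log2 difference -0.96, adjusted p = 0.0322 by limma), beside 0.257% of all genes. Their mean level relative to VEH-WT ranged from 0.791 to 1.22 in VEH-WT, from 0.378 to 0.614 in VEH-CD, from 0.46 to 0.788 in VERCUR-WT and from 0.536 to 0.703 in VERCUR-CD mice. The 14 glucocorticoid-responsive genes had a median of -0.454 in the same comparison, with 7 lower and 0 higher at an unadjusted p under 0.05. Their level ranged from 0.79 to 1.12 in VEH-WT and from 0.663 to 0.892 in VEH-CD mice. None of the 9 members is in either list.

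Mouse by mouse, the extremes of Nfkbia were those of the glucocorticoid list. VEH-WT mice 2 and 3 were highest for both, with list levels of 1.09 and 1.12, and VEH-CD mouse 2 was lowest for both, with 0.663 and a Nfkbia count of 666. VEH-WT mouse 1 departed from this, with a list level of 0.79 and a count of 864. For the immediate early genes the lowest mouse was VEH-CD mouse 1, at 0.378, where Rel was 151, the second lowest of 12. Rel was lowest, at 144, in VERCUR-WT mouse 2, which had the next lowest level of immediate early genes, 0.46. Relb was 300.1 in that same mouse, its highest value outside VEH-WT. VERCUR-CD mouse 2, next lowest for the immediate early genes at 0.536, departed from this for Rel. Its Rel count of 233 was the highest outside VEH-WT.

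**Figure D5:**
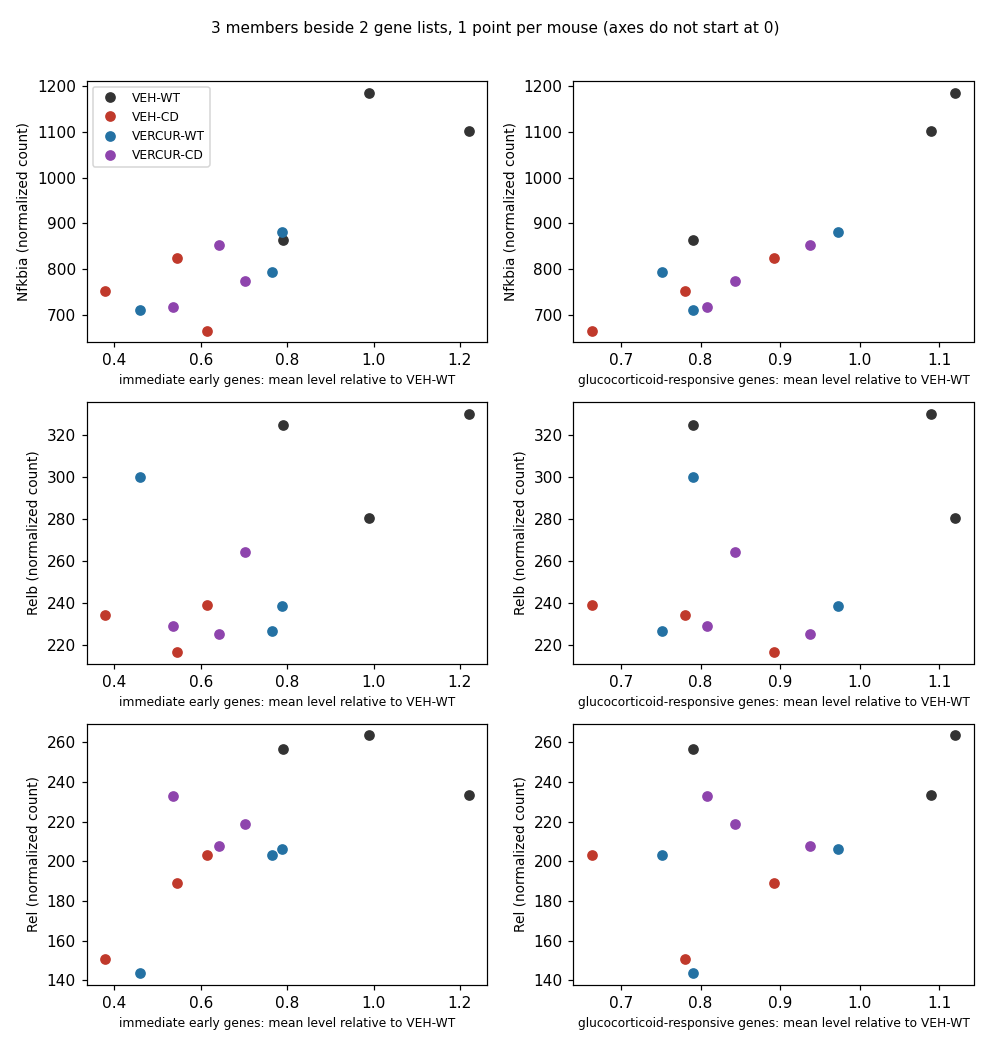
Normalized counts of Nfkbia, Relb and Rel (rows) against the mean level of the immediate early genes (left) and of the glucocorticoid-responsive genes (right), relative to the VEH-WT mean, 1 point per mouse and a color per group. VEH-WT mice 2 and 3 lie at the upper right in the Nfkbia panels, at 1102 and 1186. The VEH-CD mice, at counts of 666 to 824, overlap the co-treated mice. In the glucocorticoid panel VEH-CD mouse 3, at 0.892, lies to the right of VEH-WT mouse 1, at 0.79.

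Markers of 12 cell types were read in the same comparison, and their part in the result was not tested. None of these markers was called by limma. Of 15 microglia markers, 12 had a difference above 0 in VEH-CD against VEH-WT, with a median of 0.135, and 1 was at an unadjusted p under 0.05. Their level was 0.893 to 1.07 in VEH-WT and 0.992 to 1.20 in VEH-CD mice. Of 12 endothelial markers, 7 had a difference below 0, with a median of -0.03. Of 8 lymphocyte markers, 5 were not analysed here, and the 3 others, Lck included, had a median of 0.415. Of 5 red blood cell markers, 5 were above 0, with a median of 0.359, and of 8 mural cell markers 5, with a median of 0.042.

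The 7 other lists had a median below 0, as the endothelial list did, beside -0.128 for the members and -0.003 for all genes. Of 6 choroid plexus markers measured, 5 were below 0, with a median of -0.261, and of 6 markers of border macrophages and monocytes 4, with a median of -0.221, each with 1 lower at an unadjusted p under 0.05. Of 8 oligodendrocyte markers, 7 were below 0, with a median of -0.156, and their level was 0.762 to 1.22 in VEH-WT and 0.731 to 0.995 in VEH-CD mice. Of 11 cortical neuron markers, 7 were below 0, with a median of -0.043, and 3 of them had an unadjusted p under 0.05. Their level was 0.971 to 1.03 in VEH-WT and 0.918 to 1.02 in VEH-CD mice. Medians were -0.089 for meningeal fibroblasts, -0.023 for astrocytes and -0.002 for striatal neurons. Shifts in other comparisons were larger for some lists. In VERCUR-WT against VEH-WT, oligodendrocyte and striatal markers were all below 0 (medians -0.482 and -0.549), and 14 of 15 microglia markers above. VERCUR-CD against VEH-WT had 7 of 15 microglia markers higher at an unadjusted p under 0.05 in limma, beside 3.92% of all genes. In VERCUR against VEH over both genotypes, 10 of 10 astrocyte markers were above 0 (median 0.111). Their part was not tested either.

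Similarity of pattern was described as Pearson's r of log2 values over the 12 mice, which share group differences and normalization, with no test. The genes most like Nfkbia were Tsc22d3 (r = 0.946) and Ddit4 (r = 0.939), both in the glucocorticoid list, and Fgf18 (r = 0.925). With group means taken out, r was 0.882, 0.897 and 0.826. Tsc22d3, which encodes the glucocorticoid-induced leucine zipper, had 3221, 4665 and 4533.5 in VEH-WT and 2773, 2221 and 2920.4 in VEH-CD mice (log2 difference -0.64, SE 0.163, adjusted p = 0.159 by limma). It was also the lowest of the 4 groups in VEH-CD by its mean, 2638, as Nfkbia was.

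The nearest genes to Rel were Specc1l (0.938), Fbxl14 (0.918) and Sinhcaf (0.914), and those to Relb were Fam53b (0.92), Snai3 (0.903) and Rce1 (0.9). Nfkb1 was most like Cdyl (0.972), Nfkb2 like Ccdc88c (0.95), Rela like Ormdl3 (0.926), Nfkbib like Ctxn2 (0.95), Nfkbie like Gm42656 (0.883) and Tnfaip3 like Htr3a (0.859). No member was among the 3 nearest genes of another. Between members, r was highest for Rela and Nfkbib, at 0.736, and 0.741 with group means taken out. Nfkbia, Relb and Rel had r of 0.448 (Nfkbia and Relb), 0.574 (Nfkbia and Rel) and 0.267 (Relb and Rel). With group means taken out these became -0.577, 0.131 and -0.63, so that within groups Relb varied opposite to Nfkbia and Rel.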

How the data were processed

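RNA of the cortex of 12 mice, 3 in each group, was sequenced. Groups and columns were taken from the sample labels. The authors aligned reads to GRCm38 with STAR 2.5.3a, per the submitters' processing notes, and deposited reads per gene divided by 1 factor per sample (normalized counts). The counting program, annotation and normalization are not given in the sources used here. In each column, low values were whole multiples of 1 step (tolerance 0.1 of a step), from which depth was read.

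limma 3.58.1 in R 4.3.3 was fitted, with an intensity trend, to log2(normalized count + 1) of the 17111 genes with a mean of at least 10, all 12 mice in 1 fit of 4 group means. Tests were two-sided, with Benjamini-Hochberg adjustment over these genes. A gene was called at an adjusted p below 0.05 where its fold change also exceeded 1.25 or lay below 0.75; for the interaction the adjusted p alone decided. Each p value sets a difference against a spread between mice that is pooled over the 4 groups and drawn toward a trend over all genes. Members, lists and alternatives were chosen with earlier results of these data known. Of the pathway lists, the 2 genes with the smallest p in each direction in VEH-CD against VEH-WT and in CD against WT over both treatments were eligible to be named, and for each member the 3 genes most like it. Any other gene was picked with its values in view. The authors' tables of selected genes relative to VEH-WT were not used here.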

Additional observations from a re-analysis of the deposited data

Results flagged for a closer look

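Among the members, Rel alone had CD and WT mice that differed in opposite directions under the 2 treatments without overlap. Each VEH-CD mouse (151 to 203 normalized counts) was below each VEH-WT mouse (233 to 263). Each VERCUR-CD mouse (208 to 233) was above each VERCUR-WT mouse (144 to 206). The co-treated gap was narrow, from the highest VERCUR-WT mouse at 206.13 to the lowest VERCUR-CD mouse at 207.87. The log2 difference between these groups was 0.272 (SE 0.151, unadjusted p = 0.0961 by limma). How many of all genes had such opposite directions without overlap was not counted. The test of whether the genotype difference depends on the treatment gave a log2 interaction of 0.751 (SE 0.214) for Rel. Its adjusted p was 0.816 by limma, so that it did not pass over all genes. In fits without 1 mouse the interaction ranged from 0.58, without VERCUR-WT mouse 2, to 0.84, and without the 4 mice highest in striatal markers it was 0.68. The levels of the immediate early genes were lowest in VEH-CD mouse 1 and VERCUR-WT mouse 2, the mice lowest for Rel. The next lowest was VERCUR-CD mouse 2, at 0.536, whose Rel count of 233 was the highest outside VEH-WT. The part of these genes in the result was not tested.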

How the results depend on the processing

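Of 197 counts of members called under 25 alternatives, 195 stayed at 0. The exceptions came with single values removed where the CV was 20% or more: 3 members in VEH-CD against VEH-WT and 1 in VERCUR-CD against VEH-WT, with Nfkbia at -0.483 and -0.417, Relb at -0.435 and Rel at -0.479. By construction this removes the most deviant values before the spread is estimated, and the genes called in these comparisons went from 44 to 972 and from 34 to 840 of all those tested. In the other comparisons they went from 25 to 448 (VERCUR-CD against VERCUR-WT), from 55 to 837 (genotype average) and from 0 to 241 (VERCUR-CD against VEH-CD), 649 (VERCUR-WT against VEH-WT), 442 (treatment average) and 492 (interaction). Without the 4 mice highest in striatal markers, 16 genes were called in VEH-CD against VEH-WT and 29 in the genotype average, and 12, 13 and 23 in VERCUR-CD against VEH-CD, VERCUR-WT against VEH-WT and the treatment average, each with 0 members. Without 1 mouse, VEH-CD against VEH-WT gave 23 to 71 genes. With only genes under a CV of 20%, 81 were called in VEH-CD against VEH-WT, and 0 of the 7 members left. Adjusted p in VEH-CD against VEH-WT ran from 0.0221 to 0.863 for Nfkbia, from 0.0346 to 0.738 for Relb and from 0.0498 to 0.979 for Rel.

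Of 1757 member values, 57 changed sign, 42 of them without 1 mouse, all where the main value was under or equal to 0.16 in size; the cause was not tested. Quantile normalization gave 0.011 for Rela in VEH-CD against VEH-WT. Single values removed gave 0.016 for Nfkb2 in VERCUR-CD against VEH-CD and 0.073 in the interaction, and 0.043 (genotype) and -0.049 (treatment) for Tnfaip3 in the averages. Without the 4 mice highest in striatal markers, chosen after seeing the data, VERCUR-CD against VERCUR-WT gave 0.006 for Nfkb1, -0.012 for Rela, 0.059 for Nfkbia and -0.016 for Tnfaip3. The same fit gave -0.003 for Relb in VERCUR-CD against VEH-CD, 0.023 for Rel, -0.041 for Rela and -0.039 for Nfkbib in the genotype average, -0.009 for Tnfaip3 in the treatment average and 0.006 for Nfkb2 in the interaction.

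Without 1 mouse, values in VEH-CD against VEH-WT ranged from -0.262 to 0.034 for Nfkb2, -0.059 to 0.014 for Rela and -0.126 to 0.105 for Nfkbie. In VERCUR-CD against VERCUR-WT they ranged from -0.101 to 0.015 for Nfkb1, -0.035 to 0.13 for Rela, -0.163 to 0.038 for Relb, -0.101 to 0.053 for Nfkbia, -0.082 to 0.015 for Nfkbib, -0.065 to 0.126 for Nfkbie and -0.069 to 0.215 for Tnfaip3. In VERCUR-CD against VEH-CD they were -0.022 to 0.094 for Nfkb1, -0.28 to 0.016 for Nfkb2, -0.017 to 0.098 for Relb and -0.015 to 0.138 for Nfkbia. In VERCUR-WT against VEH-WT they were -0.171 to 0.011 for Nfkb2 and -0.221 to 0.063 for Tnfaip3, and in VERCUR-CD against VEH-WT -0.047 to 0.05 for Tnfaip3. The genotype average ranged from -0.027 to 0.055 for Rela, -0.017 to 0.036 for Nfkbib, -0.054 to 0.067 for Nfkbie and -0.099 to 0.043 for Tnfaip3, and the treatment average from -0.048 to 0.01 for Nfkb1 and -0.049 to 0.093 for Tnfaip3. The interaction ranged from -0.223 to 0.073 for Nfkb2, -0.015 to 0.149 for Rela and -0.076 to 0.169 for Nfkbie.

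Same-numbered mice of different groups did not deviate together (r of -0.347 to 0.267), so the numbers were not taken as pairs. With the replicate number as a block, 0 members and 40 genes were called in VEH-CD against VEH-WT, and no call of a member changed. The planned count-based fits on recovered reads were not run. With 3 mice a group, the intervals give the precision of each difference.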
